A study of Mus musculus with 15 samples.

Results

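The transcripts described here are those of 9 epithelial keratins (*Krt5*, *Krt7*, *Krt8*, *Krt13*, *Krt14*, *Krt15*, *Krt17*, *Krt18* and *Krt19*) in Mouse Embryonic Fibroblasts (MEFs). The genes were chosen on their levels in the 5 groups of these arrays, with earlier results known, and their probes are those assigned to a RefSeq transcript of a listed gene. They are 9 of the 23462 genes named on the array and have 10 of its 56605 distinct probes, with 2 for *Krt13* and 1 for each of the others. The cells were Balb/c 3T3 clone A31, an established mouse line that derives from 1 clone, so the groups hold no spread between embryos. Control MEFs were untreated. The other groups received 10 ng/ml of TNFα, 5 ng/ml of TGFß1, 1 ng/ml of IL-1β, or 20 ng/ml of IL-6 together with 25 ng/ml of its soluble receptor sIL-6Rα, the last called IL-6 here. The labels name no genotype other than the line. RNA from 3 samples per group was hybridized to 1-color oligonucleotide arrays, 15 in all. The study's methods give 3 independent experiments and a stimulation of 24 h for the control, TNFα and TGFß1 arrays, while the exposure of the IL-1β and IL-6 groups is not stated for the group. For these 2 groups nothing states that the arrays came from separate cultures, so the spread between their arrays may be technical. Their q-values rest on a spread pooled over the arrays of all 5 groups.

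Keratins are the intermediate filament proteins of epithelial cells. A type I keratin (*Krt13*, *Krt14*, *Krt15*, *Krt17*, *Krt18* and *Krt19* here) forms a filament with a type II keratin (*Krt5*, *Krt7* and *Krt8* here). *Krt8* and *Krt18* are the pair of simple epithelia, *Krt5* and *Krt14* the pair of the basal layer of stratified epithelia, and fibroblasts build their filaments mainly from vimentin.

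Each array is named by its group and the number that opens its label. Signals are the processed spot intensities of the scanner software. Levels are log2 signals relative to the 75th percentile of the same array, and differences between groups are differences of these levels, with the standard error (SE) of a linear model (limma) over all 15 arrays. A signal was well above background where the software marked it so, and the dimmest such signal on an array was 12.8 to 18.1. The 75th percentile was 325 to 445, 48.3% to 54.9% of the probes were well above background, and no spot was saturated. A probe was tested when it was well above background on all 3 arrays of at least 1 group, and called when the q-value was below 0.05 with a fold-change of at least 1.5. The 15 arrays lay on 2 slides, each scanned at its own time, and every group had arrays on both.

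The labelled cell type was compared with its markers. *Vim*, *Col1a1*, *Col1a2*, *Col3a1* and *Pdgfrb* were well above background on 15 of 15 arrays, and the *Vim* signal was 67165 to 88128. All 23 fibroblast markers listed were well above background on the 3 control arrays. *Cdh1*, the adhesion molecule of epithelia, was well above background on 0 of 15 arrays and *Epcam* on 1. Of the leukocyte markers, *Itgam*, *Cd68* and *Cd3e* were well above background on all 15 arrays, and *Ptprc* and *Adgre1* on 0. Of 5 endothelial markers, *Pecam1* was well above background on all 15 arrays, with signals of 25.2 to 52.0, and the other 4 on no array. RNA was measured from whole cultures, so fewer keratin-positive cells and less keratin RNA per cell cannot be told apart.

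Windows of 250 bases before the RefSeq start (GRCm38.p6) were read for 6 of the 9 genes, in 7 windows. They are shown for *Krt8*, which was called higher with TGFß1, for *Krt18*, its partner and neighbouring gene, and for both starts of *Krt13*, which was below background with TNFα. Capitals mark the letters CACCTG, an E-box core that the Snail and ZEB repressors bind, or TGACTCA, the AP-1 site, on either strand.
Krt8, chr15:102004343-102004592, minus strand: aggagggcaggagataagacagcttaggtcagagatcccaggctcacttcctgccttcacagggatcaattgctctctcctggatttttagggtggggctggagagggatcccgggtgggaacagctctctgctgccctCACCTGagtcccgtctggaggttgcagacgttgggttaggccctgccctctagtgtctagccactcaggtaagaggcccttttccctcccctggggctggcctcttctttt
Krt18, chr15:102027966-102028215, plus strand: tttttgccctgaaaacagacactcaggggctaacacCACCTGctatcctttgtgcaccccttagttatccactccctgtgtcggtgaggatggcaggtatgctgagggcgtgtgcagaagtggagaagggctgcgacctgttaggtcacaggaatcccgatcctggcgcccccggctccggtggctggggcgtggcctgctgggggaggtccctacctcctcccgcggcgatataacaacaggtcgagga
Krt13, chr11:100121567-100121816, minus strand: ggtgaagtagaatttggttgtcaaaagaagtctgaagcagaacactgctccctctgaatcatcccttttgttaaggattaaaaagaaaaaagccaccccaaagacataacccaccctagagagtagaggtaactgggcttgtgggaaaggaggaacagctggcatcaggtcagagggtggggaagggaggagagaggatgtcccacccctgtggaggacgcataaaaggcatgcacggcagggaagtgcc
Krt13, chr11:100120578-100120827, minus strand: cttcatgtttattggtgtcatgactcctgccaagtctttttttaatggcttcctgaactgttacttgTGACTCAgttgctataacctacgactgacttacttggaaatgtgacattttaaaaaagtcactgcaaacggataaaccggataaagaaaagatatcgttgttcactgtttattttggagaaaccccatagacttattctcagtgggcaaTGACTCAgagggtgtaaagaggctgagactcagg
CACCTG or CAGGTG, its other strand, began 111 bases before the *Krt8* start and 214 before the *Krt18* start. It was also in the windows of *Krt5* and *Krt7*, 4 of the 6 genes, and in 17.2% of the 32851 mouse promoter windows of this length. TGACTCA stood at 183 and 34 bases before one *Krt13* start and in neither of the other printed genes, against 4.46% of all windows for TGACTCA or TGAGTCA. The third motif searched, GGGCGG or CCGCCC (the GC box), was in 32.7% of all windows and among these genes in *Krt7* alone, at 4 places that do not overlap its CACCTG. These matches describe letters and are not binding sites.

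The 9 genes fell into 4 kinds by where they were measured. *Krt13*, *Krt15* and *Krt19* were well above background on all 3 control arrays and all 3 were lower with TNFα and with TGFß1. *Krt8* was well above background in all 3 TGFß1 arrays and in no control. *Krt17* and *Krt18* were dim and well above background in at least 1 array of every group, and *Krt5*, *Krt7* and *Krt14* were at or near background throughout. Of the 9 genes, 6 passed the filter, *Krt8* and *Krt18* through the TGFß1 group alone and *Krt17* through the treated groups without the control. In MEFs treated by TNFα, 3 of these 6 were called lower and 0 higher, where 10.0% of all 29334 probes tested were called, 5.96% lower and 4.09% higher. In MEFs treated by TGFß1, 3 were called lower and 1 higher, where the shares were 10.4% and 7.51%, together 17.9%. With IL-1β (0.232% of probes called, 0.228% higher and 0.00341% lower) and with IL-6 (0.0580%, all of them higher), 0 of the 6 were called. The TNFα arrays of 4 of the 6 genes (with *Krt8*, which was below background in both groups) lay below all controls and those of 0 above, where 15.8% and 13.1% of all probes did so. With TGFß1 this held for 3 below and 1 above, where the shares were 18.9% and 19.9%. The median difference of the 6 was -2.95 with TNFα, -0.32 with TGFß1, -0.75 with IL-1β and -0.45 with IL-6, where that of all probes tested was 0.04, 0.07, -0.0001 and 0.0002. The TNFα median rests on values below background, and with a group below background at its bound and *Krt8* left out it was -2.84 over 5 genes. Without *Krt8* the median of the 5 was -0.93 with IL-1β and -0.69 with IL-6. Since the genes were listed with these contrasts known, their differences are descriptions and carry no test.

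**Figure D1:**
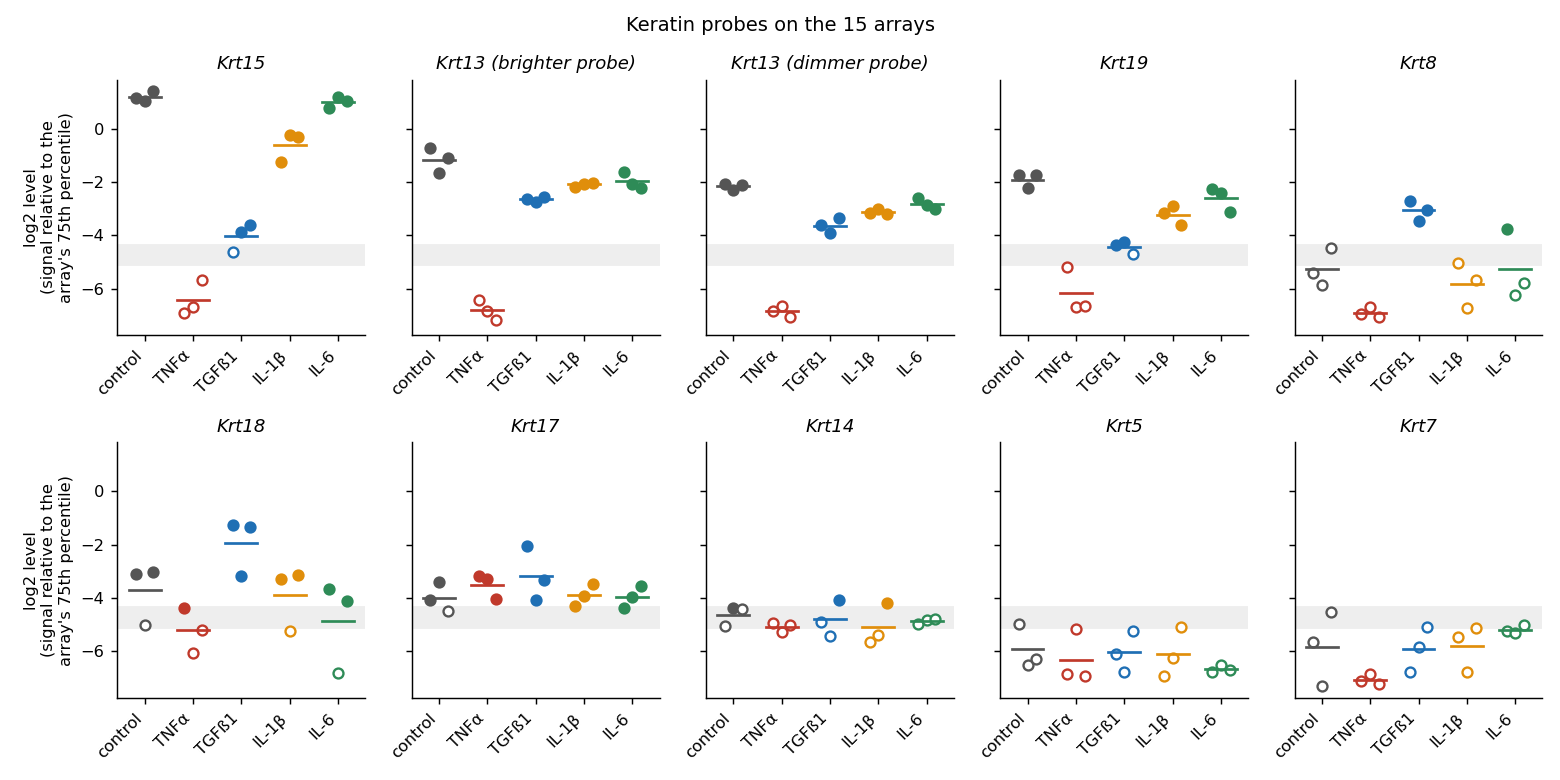
The log2 level of the 10 keratin probes (y axis, log2 signal relative to the 75th percentile of the array) on each of the 15 arrays, by group on the x axis, with 1 point per array and a line at the group mean. Filled points are well above background, open points are not, and the grey band spans the dimmest level well above background over the arrays; for *Krt15*, *Krt13* and *Krt19* all TNFα points are open and lie below all control points.

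*Krt15*, a type I keratin of basal keratinocytes and of the hair follicle bulge, had processed signals of 992, 894 and 855 in control arrays 1, 6 and 11. They were 2.96, 3.88 and 7.41 in TNFα arrays 4, 9 and 14, and 14.5, 23.6 and 31.1 in TGFß1 arrays 2, 7 and 12. All 3 TNFα arrays and TGFß1 array 2 were not well above background, and no treated array of these groups came near a control. The signals were 168, 344 and 317 in IL-1β arrays 5, 10 and 15, and 677, 863 and 903 in IL-6 arrays 3, 8 and 13. The IL-1β arrays lay between the TGFß1 arrays and the controls, and the IL-6 arrays overlapped the controls. The order of the levels was control, IL-6, IL-1β, TGFß1 and TNFα, and the first 2 were the only neighbours whose arrays overlapped.

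The level of *Krt15* differed from control by -7.63 (SE 0.36, n = 3 and 3) with TNFα, which was at least 61.7-fold lower against the background of the arrays. The difference was -5.24 with TGFß1, a fitted 37.7-fold, where 2 of 3 arrays were well above background. Both were called. With IL-1β it was -1.81, or 3.50-fold, which was not called although the arrays did not overlap, and with IL-6 it was -0.21. Within slides 1 and 2 the difference was -6.96 and -7.85 with TNFα, -5.15 and -5.17 with TGFß1, and -2.03 and -1.37 with IL-1β. With the slide and the run of label numbers (1 to 5, 6 to 10 and 11 to 15, each with 1 array per group) in the model, the IL-1β difference was called as well.

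*Krt13*, the type I keratin of internal stratified epithelia such as the oral mucosa and esophagus, was read by 2 probes. The probe with the higher mean signal, which represents the gene, gave 265, 137 and 152 in the control arrays 1, 6 and 11. It gave 4.19, 3.52 and 2.66 in TNFα arrays 4, 9 and 14, and 58.1, 51.6 and 64.2 in TGFß1 arrays 2, 7 and 12. The TNFα arrays were all below background and the TGFß1 arrays all well above it, in contrast to *Krt15*. The signals were 89.6, 95.8 and 96.5 in IL-1β arrays 5, 10 and 15, and 129, 91.7 and 94.2 in IL-6 arrays 3, 8 and 13. The levels of IL-6 array 3 and control array 6 overlapped, those of IL-1β and IL-6 overlapped too, and TGFß1 and TNFα each stood apart.

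The difference from control of this *Krt13* probe was -5.64 (SE 0.23) with TNFα, at least 12.0-fold lower, and -1.48 with TGFß1, or 2.79-fold. Both were called. It was -0.93 with IL-1β and -0.80 with IL-6, neither of them called. The second probe differed by -4.69 (SE 0.16; at least 6.00-fold lower), -1.48, -0.96 and -0.66 in the same order, so both probes had the same direction in each of the 4 comparisons. Its difference with IL-1β was called, and it was the only 1 of the 29334 probes called lower there. The call was lost on leaving out control 1 (-0.91), IL-1β 5 (-0.95) or IL-1β 10 (-1.03), and in a fit of the control and IL-1β arrays alone. At an unadjusted p under 0.05, 367 probes were lower with IL-1β by the same limma fit. Within slides 1 and 2 the representative probe differed by -6.24 and -4.97 with TNFα and by -1.83 and -0.94 with TGFß1.

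*Krt19*, a type I keratin of simple and ductal epithelia that lacks most of the tail domain, gave signals of 132, 92.2 and 96.7 in the control arrays 1, 6 and 11. They were 9.94, 3.89 and 3.81 in TNFα arrays 4, 9 and 14 and 17.5, 17.9 and 14.5 in TGFß1 arrays 2, 7 and 12. The TNFα arrays were all below background, and the TGFß1 arrays lay around its edge, with array 12 not well above it. The signals were 45.3, 54.1 and 32.4 in IL-1β arrays 5, 10 and 15 and 83.9, 71.2 and 49.7 in IL-6 arrays 3, 8 and 13. The levels of IL-1β and IL-6 overlapped each other and neither overlapped the controls, the highest IL-6 array (-2.25) and the lowest control (-2.23) being nearly level.

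The level of *Krt19* differed from control by -4.25 (SE 0.37) with TNFα, at least 7.14-fold lower, and by -2.53 with TGFß1, or 5.79-fold. Both were called. The differences of -1.31 with IL-1β and -0.69 with IL-6 were not. Within slides 1 and 2 they were -4.88 and -3.70 with TNFα and -2.51 and -2.30 with TGFß1. *Krt13*, *Krt15* and *Krt19* therefore shared the order of the group means, from control through IL-6, IL-1β and TGFß1 to TNFα. The order was not particular to them, as *Krt20*, *Krt36* and *Krt42*, described below, had it too, with IL-6 and IL-1β nearly level for *Krt42*. For *Krt13*, *Krt15* and *Krt19* the arrays did not overlap the controls with IL-1β either, nor did those of *Krt20*, where 2.17% of all probes lay below all controls and 3.16% above. With IL-6 this held for *Krt19* alone by its representative probe, against 2.47% of all probes below and 2.58% above.

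**Figure D2:**
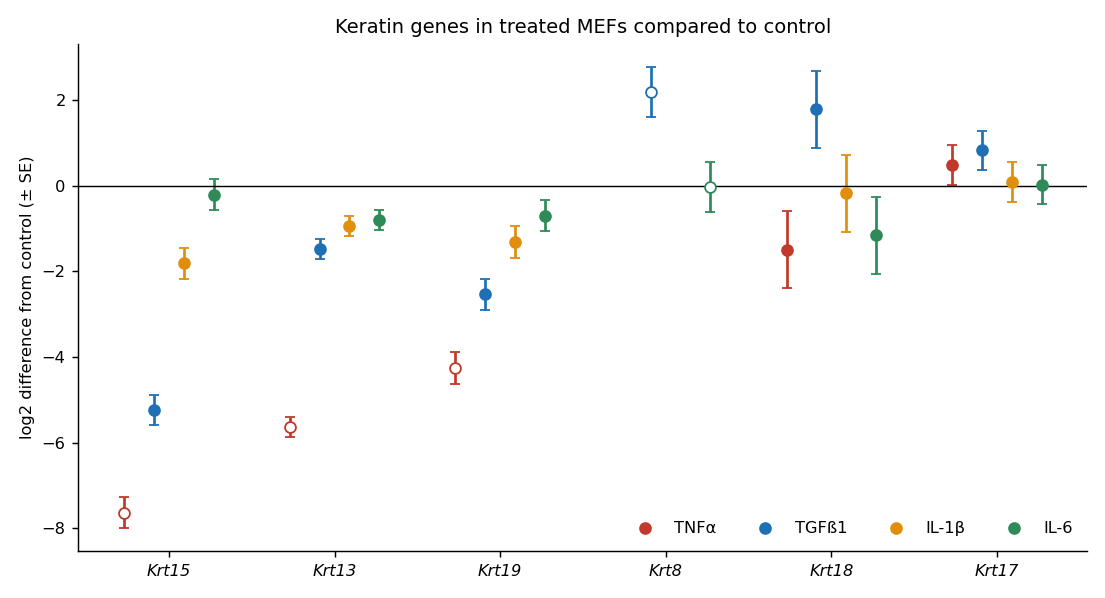
Differences from control in log2 level (y axis) of the 6 keratin genes that passed the filter (x axis), with 1 point for each treatment and bars of 1 SE from the model over 15 arrays (3 arrays per group). Open points mark comparisons in which 1 group had no array well above background, and none is drawn where neither had one; *Krt13*, *Krt15* and *Krt19* lie lowest with TNFα, and *Krt8* at 2.19 with TGFß1.

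*Krt8*, the type II keratin of simple epithelia, gave signals of 10.4, 7.34 and 14.8 in the control arrays 1, 6 and 11, none of them well above background. In TGFß1 arrays 2, 7 and 12 they were 55.2, 31.6 and 45.8, all well above background and above every other array of the series. The TNFα signals were 2.92, 3.82 and 2.85 in arrays 4, 9 and 14. These lay below all controls, but as both groups were below background no fold is given. In IL-1β arrays 5, 10 and 15 the signals were 12.3, 3.81 and 7.69, and in IL-6 arrays 3, 8 and 13 they were 29.0, 5.01 and 7.82. IL-6 array 3 was the only array outside the TGFß1 group with *Krt8* well above background.

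*Krt8* passed the filter through the TGFß1 group alone and was listed with this contrast known, so its call is a description. The level of *Krt8* differed from control by 2.19 (SE 0.59) with TGFß1, at least 3.37-fold higher, and the difference was called. It was 1.49 within slide 1 and 3.00 within slide 2. The call was lost without control 6 (1.87) and without TGFß1 array 2 (2.00). No difference is given with TNFα or IL-1β, where neither group had an array well above background. The IL-1β and IL-6 arrays overlapped the controls.

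*Krt18*, the type I partner of *Krt8*, gave signals of 52.3, 13.4 and 39.7 in the control arrays 1, 6 and 11 and of 150, 38.5 and 149 in TGFß1 arrays 2, 7 and 12. The lowest TGFß1 array was at the level of the controls and the other 2 were above all of them. In TNFα arrays 4, 9 and 14 the signals were 17.5, 6.04 and 10.4, of which the first alone was well above background. They were 41.6, 10.7 and 44.8 in IL-1β arrays 5, 10 and 15, and 31.8, 3.40 and 25.1 in IL-6 arrays 3, 8 and 13. In every group the array of the run 6 to 10 (control 6, TNFα 9, TGFß1 7, IL-1β 10 and IL-6 8) was the lowest.

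The level of *Krt18* differed from control by 1.78 (SE 0.90) with TGFß1 and by -1.49 with TNFα, and neither was called. With the slide and the run in the model both were called, at 1.69 and -1.58. Within slide 1, where the TGFß1 group is the array of the run 6 to 10 alone, the difference was -0.11, and within slide 2, where the control is the array of that run alone, it was 3.70. The differences of -0.18 with IL-1β and -1.15 with IL-6 were not called either. All 5 groups had the run 6 to 10 lowest for 4.39% of the 29256 probes with values on all arrays, and for *Krt8* this held in 4 of the 5 groups. The pattern was looked for after these values were seen, and the part of the run in the *Krt18* result was not tested beyond this model.

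*Krt17*, a type I keratin of hair follicles and of epidermis after injury, gave signals of 26.2, 40.6 and 14.6 in the control arrays 1, 6 and 11 and of 39.8, 41.0 and 23.0 in TNFα arrays 4, 9 and 14. In TGFß1 arrays 2, 7 and 12 they were 86.8, 20.4 and 37.4. Its groups all overlapped the controls. In IL-1β arrays 5, 10 and 15 the signals were 20.7, 26.8 and 35.2 and in IL-6 arrays 3, 8 and 13 they were 19.2, 24.8 and 37.1. The differences of 0.49, 0.83, 0.09 and 0.03 (SE 0.46 each) with TNFα, TGFß1, IL-1β and IL-6 were not called. All 7 arrays of slide 2 lay above all 8 of slide 1 for *Krt17*, as for 8.68% of the 29256 probes. Within slides 1 and 2 its difference with TGFß1 was 0.20 and 0.71.

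**Figure D3:**
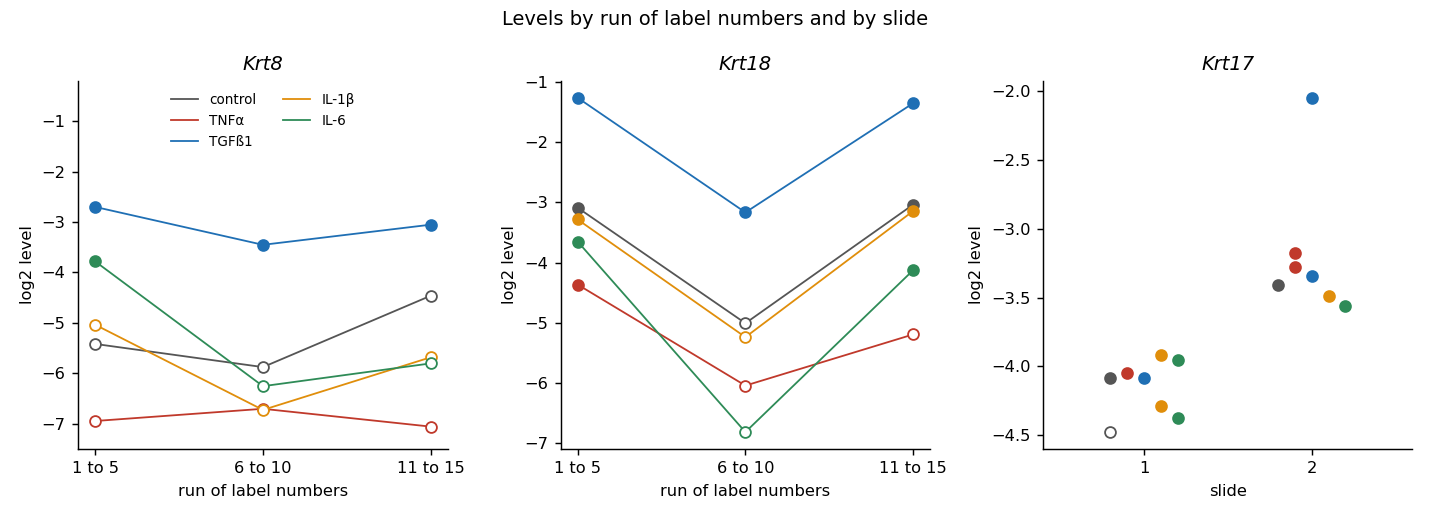
Log2 levels (y axes) of *Krt8* and *Krt18* by the run of label numbers and of *Krt17* by slide (x axes), with 1 point per array coloured by group, filled where well above background, and lines joining the arrays of a group. The run 6 to 10 is lowest in all 5 groups for *Krt18* and in 4 for *Krt8*, and the 7 arrays of slide 2 lie above the 8 of slide 1 for *Krt17*.

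*Krt5*, *Krt14* and *Krt7* were not well above background in most arrays. *Krt5*, the type II keratin of basal keratinocytes, was well above background on 0 of 15 arrays, with signals of 3.09 to 14.1. *Krt14*, its type I partner, was well above background on control 6, TGFß1 12 and IL-1β 15, all of slide 2, at signals of 20.6, 22.8 and 21.8. *Krt7*, a type II keratin of simple glandular epithelia, was well above background on none, with signals of 2.56 to 14.2. These 3 genes did not pass the filter, and a change below the background of the arrays was not detectable.

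Levels of the members were compared over the 15 arrays as a description, in which the arrays of a group share their treatment. Pearson's r was 0.931 between *Krt15* and *Krt19*, 0.916 between *Krt13* and *Krt19* and 0.865 between *Krt13* and *Krt15*. It was 0.822 between *Krt8* and *Krt18*, while *Krt8* had 0.07 with *Krt15*, 0.486 with *Krt13* and 0.213 with *Krt19*. *Krt18* had -0.04, 0.371 and 0.104 with the same 3. Outside the TGFß1 arrays and IL-6 array 3, the *Krt8* values behind these r are below background. *Krt8* and *Krt18* also shared the low run 6 to 10, in 4 and 5 of the 5 groups, and its part in their r was not tested. In the RefSeq annotation *Krt13*, *Krt15* and *Krt19* are successive coding genes of chromosome 11, and *Krt8* and *Krt18* are neighbours on chromosome 15. *Krt14* and *Krt17*, on either side of *Krt16*, lie in the same chromosome 11 cluster. *Krt17* was called in no comparison, and *Krt14* was not tested.

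Among all tested probes with a gene name, those most like each member over the 15 arrays were taken by the highest r. For *Krt15* they were *Plin4* (0.983), *Tinagl1* (0.981) and *Cyp39a1* (0.974). For *Krt19* they were *Ctnnbip1* (0.970), *Tinagl1* (0.965) and *Lrrc8e* (0.963), and for *Krt13* they were *Cidec* (0.971), *Slc6a6* (0.966) and *Nr2f1* (0.959). *Plin4* and *Cidec* encode proteins of lipid droplets. For *Krt8* they were *Irx3* (0.924), *Tnni1* (0.920) and *Baalc* (0.918), for *Krt18* *Egr4* (0.934), *Ing1* (0.924) and *Mical3* (0.924), and for *Krt17* *2610318N02Rik* (0.921), *Rnf19a* (0.895) and *Gm4850* (0.891). No member was among the 3 most like of another member.

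The other keratins gave a smaller share of measured genes than the members. The members were chosen on their levels in these arrays, so this contrast is not a result. Of 45 other keratins listed, 44 had a probe, 13 were tested and 25 were well above background on no array. With TNFα 3 fell (23.1% of the 13) and 0 rose, beside 5.96% and 4.09% of all probes tested. *Krt20*, a type I keratin of the intestinal epithelium, had signals of 110, 130 and 93.5 in control arrays and of 17.7, 3.84 and 8.84 in TNFα arrays, a difference of -3.64 (SE 0.49, limma q = 0.000429). *Krt42* (-2.64, limma q = 0.00847) and *Krt36* (-2.37, limma q = 0.00592) fell to below background in all 3 TNFα arrays, at least 1.69-fold and 1.45-fold lower, and both calls were lost with normexp background correction (-0.41 and -0.38). Both passed the filter through the control group alone, where they were highest in detection, and both are counted in the 3 that fell. *Krt36* adjoins *Krt13* and *Krt42* adjoins *Krt17* in the annotation. With TGFß1 the differences of these 3 were -1.37, -1.33 and -1.18 for *Krt20*, *Krt42* and *Krt36* (limma q = 0.0611, 0.106 and 0.0881), and 0 of the 13 were called with TGFß1, IL-1β or IL-6.

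Genes that work with keratins in epithelia were taken from 4 lists, of junctions that anchor keratins, adhesion and polarity, transcription and splicing regulators, and squamous differentiation. Of 97 genes, 95 had a probe, 39 were tested and 41 were well above background on no array. Of the 39, 3 passed the filter without the control, among them *Pkp1* and *Lamb3*, which are counted below as rises with TGFß1. *Lamb3* passed through the TGFß1 and IL-1β groups. It is also counted as a rise with TNFα and is the 1 gene that rose with IL-1β. With TNFα, 12 of the 39 fell (30.8%) and 2 rose (5.13%), beside 5.96% and 4.09% of all probes tested. With TGFß1, 12 fell (30.8%) and 7 rose (17.9%), beside 10.4% and 7.51%. With IL-1β and with IL-6, 1 gene rose and 0 fell. The median difference of the 39 genes was -0.18, 0.03, -0.04 and 0.01 in the 4 comparisons, and with TGFß1 it was -0.11 within slide 1, -0.09 within slide 2 and -0.02 with the slide in the model. All genes of these lists and of the other keratins that were called kept their direction within both slides.

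Of 16 tested genes of the junctions, 4 fell and 2 rose with TNFα, and 2 fell and 5 rose with TGFß1. *Ppl* (periplakin) and *Eppk1* (epiplakin), cytolinkers that bind intermediate filaments, fell with both. The *Ppl* signals were 1228, 1125 and 1172 in control, 52.8, 73.3 and 89.8 with TNFα, and 125, 74.5 and 205 with TGFß1. It fell by 4.00 with TNFα (SE 0.29, limma q = 3.69e-06) and fell by 3.11 with TGFß1 (limma q = 1.87e-05). *Eppk1* was below background in both treated groups, at least 5.02-fold lower with TNFα (limma q = 0.000424) and 4.85-fold with TGFß1 (limma q = 0.00132).

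*Jup* (plakoglobin), which links cadherins to the filaments, moved in opposite directions. Its signals were 129, 110 and 81.7 in control, 34.0, 35.4 and 25.9 with TNFα, and 233, 482 and 307 with TGFß1. The 3 groups did not overlap. It fell by 1.67 with TNFα (SE 0.27, limma q = 0.00172) and rose by 1.77 with TGFß1 (limma q = 0.000686), and the TNFα and TGFß1 groups differed by -3.44 (limma q = 3.48e-06). *Pkp1* (plakophilin 1), a desmosomal plaque protein, was below background in control and in all TNFα, IL-1β and IL-6 arrays, and at 52.7, 28.2 and 37.5 with TGFß1. It was at least 2.98-fold higher than control there (limma q = 1.6e-06), and it passed the filter through the TGFß1 group alone.

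*Lamb3*, a laminin chain of the epithelial basement membrane, was below background in control and rose at least 2.68-fold with TGFß1 (limma q = 0.000118) and at least 1.94-fold with IL-1β (limma q = 0.00961). It was called with TNFα as well (1.65, limma q = 0.00975, at least 1.03-fold), where it was well above background on 2 of 3 arrays. *Col17a1*, a collagen of the hemidesmosome, rose by 2.02 with TGFß1 (limma q = 0.00458), while the hemidesmosome genes *Itgb4* (0.03), *Itga6* (-0.47), *Cd151* (-0.35), *Plec* (-0.15) and *Dst* (0.15) were not called there. *Pkp2*, another plakophilin, fell with TNFα (-1.11, limma q = 0.0298). The call of *Pkp2* was lost on leaving out control 1, control 11, TNFα 4 or TNFα 9 (-1.15 to -0.89), that of *Lamb3* on leaving out TNFα 4 (1.35) with TNFα and IL-1β 5 or 15 (2.49 and 2.50) with IL-1β. *Col17a1*, *Pkp2*, *Lamb3* with TNFα, *Jup* and *Eppk1* with TGFß1, and the direct comparison of *Jup* were chosen after their values were seen.

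Of 6 tested genes of adhesion and polarity, 2 fell with TNFα, 2 fell with TGFß1 and 1 rose with IL-6. *Cdh3* (P-cadherin) fell by 1.62 with TNFα (SE 0.24, limma q = 0.000756), and *Patj*, a polarity scaffold, fell by 0.86 with TGFß1 (limma q = 0.00251). *Muc1*, a mucin of the apical surface, had signals of 29.6, 27.1 and 30.2 in control, 10.0, 13.6 and 14.1 with TNFα, 7.42, 8.12 and 10.9 with TGFß1, and 86.5, 104 and 97.0 with IL-6. It fell by 1.15 with TNFα (limma q = 0.00306), was at least 1.94-fold lower with TGFß1 (limma q = 0.000202) and rose by 1.69 with IL-6 (limma q = 0.00949). The last call was lost on leaving out control 1, control 6 or IL-6 array 8 (1.58 to 1.62, limma q = 0.0590 to 0.0661), and in a fit of the control and IL-6 arrays alone.

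Of 6 tested regulators, 2 fell with TNFα and 3 with TGFß1. *Tfap2a* (AP-2α), a factor of epidermal genes, had signals of 4805, 5940 and 4133 in control, 1347, 1620 and 1455 with TNFα, and 1154, 1092 and 1149 with TGFß1, and fell by 1.67 with TNFα (SE 0.19, limma q = 0.000104) and fell by 1.98 with TGFß1 (limma q = 2.09e-05). *Klf4*, needed for the epidermal barrier and also made by fibroblasts, fell by 2.05 with TGFß1 (SE 0.16, limma q = 6.81e-06) and by 0.69 with TNFα (limma q = 0.0164). The TNFα call of *Klf4* was lost on leaving out control 1, control 11 or TNFα 4 (-0.65 to -0.56). *Grhl1*, a grainyhead factor of epithelia, fell by 1.34 with TGFß1 (limma q = 0.00382), where 1 of 3 arrays was well above background. The other 13 regulators listed did not pass the filter, 11 of them well above background on no array.

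Of 11 tested genes of squamous differentiation, 4 fell with TNFα, and 5 fell and 2 rose with TGFß1. *Anxa8* (annexin A8) had signals of 9609, 3366 and 6378 in control, 583, 662 and 606 with TNFα, and 11978, 9492 and 13545 with TGFß1. It fell by 3.20 with TNFα (SE 0.30, limma q = 2.84e-05) and rose by 1.10 with TGFß1 (limma q = 0.0178), the latter call being lost without TGFß1 array 2 or 12 (1.07 and 1.02). The TNFα and TGFß1 groups differed by -4.30 (limma q = 1.24e-06). *Sprr1a*, a cornified envelope precursor, fell by 2.93 with TNFα (limma q = 0.00368) and by 3.41 with TGFß1 (limma q = 0.000790). In each of these groups only 1 of 3 arrays was well above background for *Sprr1a*, so the sizes rest in part on values below it. *Dmkn* (dermokine) fell to below background with both treatments, at least 2.57-fold and 2.55-fold lower (limma q = 0.00463 and 0.00435). *Sbsn* (suprabasin) fell by 1.99 with TGFß1 (limma q = 0.000326). Of the other genes called, the water channel *Aqp3* fell by 1.32 with TNFα and fell by 1.91 with TGFß1, the calgranulin *S100a8* fell by 1.92 and the fatty acid binding protein *Fabp5* rose by 1.21 with TGFß1. The *Aqp3* call with TNFα was lost on leaving out control 1, control 11, TNFα 4 or TNFα 14 (-1.29 to -1.15), and that of *S100a8* without control 6 (-1.26) or TGFß1 12 (-1.89). *Aqp3*, *S100a8*, *Fabp5*, and *Anxa8* with TGFß1 and between the 2 treatments, were chosen after their values were seen.

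**Figure D4:**
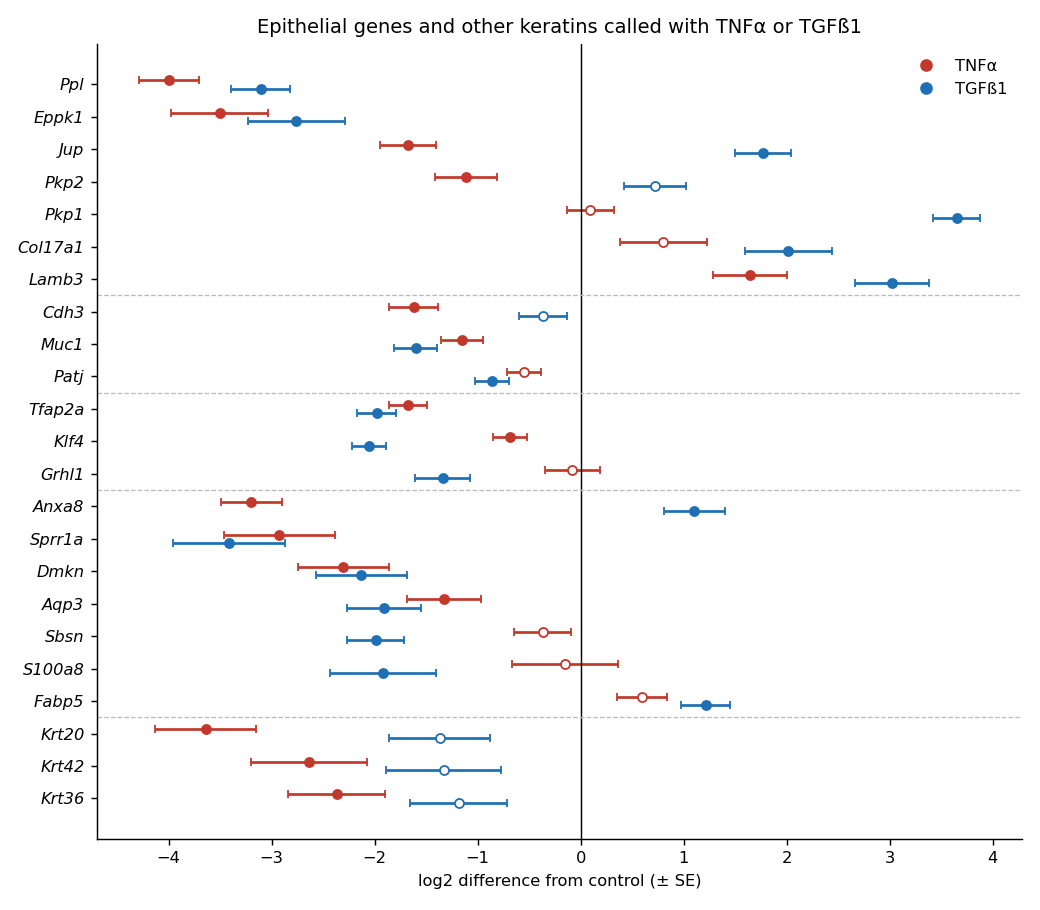
Differences from control in log2 level (x axis, with bars of 1 SE, 3 arrays per group) with TNFα and TGFß1 for the genes of the 4 epithelial lists and of the other keratins that were called in either comparison and are described in the text (y axis), with dashed lines between lists. Filled points were called and open points were not; *Jup* and *Anxa8* were called in opposite directions with the 2 treatments.

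Other cell types and filaments were followed by their markers. Summed over the 95 epithelial genes, the linear level (signal over the 75th percentile) was 269 to 367 in control, 258 to 291 with TNFα and 282 to 311 with TGFß1, and these ranges overlapped. On slide 1 alone the sum was 367 in both controls, 291 with TNFα and 311 with TGFß1, and on slide 2 it was 269 in control, 258 and 269 with TNFα and 282 and 303 with TGFß1. The lists differed within this sum, which is linear, so that its brightest genes weigh most. Mean control log2 levels were 7.05 for *Plec* of the junctions and 6.12 for *Klf4* of the regulators. Of the squamous genes 5 fell and 2 rose with TGFß1. Among them *Anxa8* was at log2 levels of 5.06, 4.78 and 5.16 in TGFß1 arrays 2, 7 and 12. The regulators summed to 83.6 to 106 in control, 56.7 to 63.9 with TNFα and 30.7 to 37.9 with TGFß1, and the squamous genes to 30.4 to 55.0, 32.7 to 46.5 and 77.7 to 90.5. The same sum over the 9 keratins was 2.81 to 3.71 in control, 0.178 to 0.263 with TNFα, 0.581 to 1.12 with TGFß1, 0.982 to 1.46 with IL-1β and 2.50 to 2.84 with IL-6. *Krt15* was the brightest of the 9 in control, at a mean log2 level of 1.20. Over the 44 other keratins the sum on slide 1 was 8.25 and 10.0 in control, 8.83 with TNFα and 8.42 with TGFß1. On slide 2 it was 14.4 in control, 13.5 and 13.0 with TNFα and 11.7 and 12.1 with TGFß1. Of these 44, *Krt222* (mean control log2 level 2.77) was brighter than *Krt15* and was called in no comparison. Of the 16 other intermediate filaments, 10 were tested and 1 was called. *Sync* (syncoilin) was lower with TGFß1 (-1.02, limma q = 0.0191), a call lost without control 6 (-0.83) or TGFß1 7 (-0.89). The 3 leukocyte markers above background were tested and 0 called. Their summed level over the list was 9.99 to 11.5 on the arrays of slide 1 and 20.3 to 23.5 on those of slide 2. Of 5 endothelial markers 1 was tested and 0 called.

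Of the 23 fibroblast markers, 7 fell and 2 rose with TNFα, and 7 fell and 4 rose with TGFß1. The shares lower were 30.4% in both, beside 5.96% and 10.4% of all probes tested and 30.8% of the epithelial genes, and the shares higher were 8.70% and 17.4%, beside 4.09% and 7.51%. *Col3a1* (-2.17, limma q = 0.00651) and *Col6a2* (-2.15, limma q = 0.000265) fell and *Dcn* rose (1.91, limma q = 0.00935) with TNFα. *Pdgfra* (-1.98, limma q = 0.000106), *Dcn* (-1.80, limma q = 0.00782) and the mesenchymal factor *Twist1* (-1.16, limma q = 0.00610) fell with TGFß1. The part of these marker changes in the keratin differences was not tested.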

How the data were processed

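RNA of 15 samples of Balb/c 3T3 clone A31 was labelled with Cyanine 3 by the authors, hybridized to mouse oligonucleotide arrays and read with Agilent Feature Extraction 10.7.3.1. The deposited files give processed spot intensities (background-subtracted and detrended by the software), quality marks and local background, and the deposited table of the series holds the same intensities. Population outlier and non-uniform spots were dropped. The mean log2 intensity of the remaining spots of a probe was set relative to the 75th percentile of its array. A probe counted as well above background where at least 0.5 of its spots were marked so. Probes were named by RefSeq transcript (GRCm38.p6 table; 33767 of 56605). The probe of the highest mean signal stands for a gene that has several.

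Groups came from the labels. Each treatment was compared with control in 1 fit of all 15 arrays with limma 3.58.1 in R 4.3.3 (lmFit, eBayes, two-sided moderated test), adjusted by Benjamini-Hochberg over 29334 probes and called at q below 0.05 with a fold-change of 1.5. A fold against a group without any array well above background is a bound. It sets the mean of the detected group against the mean of the other after raising each of its arrays to at least the dimmest value well above background. Samples are arrays of 1 line, and their number limits the precision. The script was tested on simulated data.

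The members, the lists and the alternatives were chosen with earlier results of these data known. Named genes are all members and, per list and comparison, at most the 3 largest changes called without overlap between the groups. Of the listed genes, 2 are counted in their lists and not reported here. Alternatives were normexp background correction (offset 50, on the median signal, which stands in for the planned mean signal), quantile normalization, other percentiles and filters, a fold-change of 2, slide and run terms, within-slide values, another variance model, the deposited table, the arrays of 2 groups alone, and leaving out each array. Tables were made with Python 3.11.15 and pandas 2.3.3, and figures with matplotlib 3.10.9.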

Additional observations from a re-analysis of the deposited data

How the results depend on the processing

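Intensities near background limit the keratin values, since the sizes of differences there depend on the background correction. None of the keratin differences that were called turned direction under any alternative. With normexp, which raises dim values, 17 of 40 keratin differences moved by more than the spread between arrays, among them *Krt15* with TNFα (-3.77), *Krt13* with TNFα (-2.01 and -1.18 for its probes), *Krt19* with TNFα (-1.23) and *Krt8* with TGFß1 (0.63). Within slide 1 and within slide 2, 8 and 20 of 40 moved, with 1 to 2 arrays a group. Where only probes well above background on all 15 arrays were tested, 0 keratin genes could be called with TNFα or TGFß1, as all 6 fail that filter, and 8, 11, 0 and 0 epithelial genes were called with TNFα, TGFß1, IL-1β and IL-6 in place of 14, 19, 1 and 1. With normexp 1 keratin gene and 0 epithelial genes were called with IL-1β. With the slide and the run in the model 5 keratin genes were called with TNFα (one being *Krt8*, below background in both groups) and 1 with IL-1β, and 2 epithelial genes with IL-1β. With the arrays of the 2 groups alone, 0 epithelial genes were called with IL-6.

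The number of probes called (2948, 5250, 68 and 17 with TNFα, TGFß1, IL-1β and IL-6) became 1586 with TNFα and 2673 with TGFß1 at a fold-change of 2, 3472 with TGFß1 under normexp, and 9 with IL-6 without a filter. It became 106 with IL-1β and 37 with IL-6 with the slide in the model, and 4522, 323 and 231 with TNFα, IL-1β and IL-6 with the slide and the run. With the 2 groups alone it was 20 with IL-1β and 0 with IL-6, where 934 probes had an unadjusted p under 0.05 in the limma fit of 15 arrays. The split of higher against lower calls with TNFα was 1199 against 1749, and 2252 against 2270 with the slide and the run. With TGFß1 it was 2202 against 3048, and 1693 against 1779 under normexp.

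On leaving out 1 array, the probes called ranged from 1847 (without TNFα 4) to 2642 with TNFα, 3986 to 5384 with TGFß1, 40 (without control 1) to 55 with IL-1β, and 4 (without control 1) to 18 with IL-6. The epithelial genes called ranged from 10 to 14, 17 to 20, 0 to 2 and 0 to 1, and the keratin genes from 3 to 3, 3 to 4, 0 to 0 and 0 to 0. No label number is shared between groups and the labels state no pairing. The only blocked fits were those with the slide alone and with the slide and the run of label numbers. Of 43 values of named list genes, 24 kept their call under all alternatives run, 0 lost it with the slide terms and 0 turned direction. With normexp 14 lost it, those of *Krt36*, *Krt42*, *Muc1*, *Dmkn*, *Lamb3* and *Aqp3* with TNFα, of *Lamb3*, *Muc1*, *Patj*, *Grhl1*, *Dmkn*, *Sync* and *Aqp3* with TGFß1, and of *Lamb3* with IL-1β. The causes were not tested.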
